A study of Homo sapiens with 6 samples.

Results

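The gene PLXND1 was knocked down with either of 2 siRNAs in C4-2B MDVR cells, and the messenger RNA of these cells was compared with that of cells given a control siRNA. C4-2B MDVR is an established human prostate cancer cell line, a derivative of C4-2B that grows in the presence of the antiandrogen enzalutamide. It gave 3 libraries: 1 labelled control siRNA, 1 labelled siPLX1 (siRNA 1 below) and 1 labelled siPLX2 (siRNA 2 below). H660, a neuroendocrine prostate cancer cell line, gave the same 3 kinds of library and enters here for the spread between siRNAs and for a test of whether the effect differed between the lines. The genes described are those with a mean of at least 1 FPKM (fragments scaled to exon length and library size) over the 3 C4-2B MDVR libraries, which were 12888 of the 58735 gene IDs in the deposited table. A change is the difference from the control on the log2(FPKM + 1) scale, where 1 is a 2-fold change for a well expressed gene and understates the fold of a gene near 0. Just inside the minimum was ASRGL1, with a mean of 1.0003 FPKM. Just outside it were PADI2, with 0.9982 FPKM, and RSPH14, with 0.9986 FPKM.

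Plexin D1, the product of PLXND1, is a single-pass receptor at the cell surface. Class 3 and class 4 semaphorins bind plexins directly or together with neuropilins, and the inner part of a plexin acts on small GTPases of the Rap and R-Ras families, which set adhesion to the matrix and the shape of the actin skeleton. Plexin D1 is best known from blood vessel patterning and axon guidance, where its ligand semaphorin 3E repels growing vessels and axons.

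There was 1 control library, so its own error was not measured, and whether the libraries are separate cultures is not stated in the labels. The p-values therefore measure only the spread between siRNA 1 and siRNA 2, pooled over both lines, and that spread holds any difference in what the 2 siRNAs do. The time between transfection and harvest is not given in the sources used here. The C4-2B MDVR libraries held 17655802 to 21748669 fragments. Fragments of the mitochondrial genome made up 3.38% of the control library, 7.45% with siRNA 1 and 6.83% with siRNA 2, and the part of this difference in the results was not tested. The deposited FPKM also carry a factor per library whose source is not given in the sources used here: the library size they imply was 1.01 times the recovered fragments in the control, 0.93 times with siRNA 1 and 0.92 times with siRNA 2. This raises the knockdown values relative to the control, and it was not removed, so small differences from 0 in the medians below carry it.

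PLXND1 itself (ENSG00000004399, chromosome 3, 129555175 to 129606818, minus strand, GRCh38) was at 7.41 FPKM in the control, 1.57 FPKM with siRNA 1 and 3.10 FPKM with siRNA 2, from 1495, 308 and 490 fragments. Both knockdown libraries lay below the control, and siRNA 1 left less of the transcript than siRNA 2. The remaining level was 21.2% of the control with siRNA 1 (95% interval 18.7 to 24.0) and 41.8% with siRNA 2 (95% interval 37.7 to 46.4), where the intervals cover counting error only. In bulk libraries, fewer cells with a transcript and less of it per cell cannot be told apart. The mean change was -1.37 ± 0.31 (SE, 2 knockdown libraries against 1), which did not pass limma's moderated test after Benjamini-Hochberg adjustment over all 12888 genes (adjusted p = 0.628). In H660 the same siRNAs left PLXND1 at 7.62 and 7.54 FPKM against 9.13 FPKM in the control. The change there was -0.24, and its difference from C4-2B MDVR did not pass limma's test (adjusted p = 1.0).

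The markers of the line were mainly those of luminal prostate cells. All 9 luminal prostate markers passed the expression minimum. KRT5, a basal keratin, and the leukocyte markers PTPRC and CD3E were at 0 in all 3 libraries, as was the endothelial marker CDH5. In the control, siRNA 1 and siRNA 2 libraries the 3 basal markers summed to 0.10, 1.22 and 0.05 FPKM. The 4 leukocyte markers summed to 0, 0.26 and 0.11 FPKM, and the 3 endothelial ones to 0.48, 0.94 and 0.23 FPKM. Of the 3 fibroblast markers, COL1A1, a collagen, passed the minimum, at 3.16, 5.06 and 3.29 FPKM, and the other 2 were at 0. The 7 neuroendocrine markers summed to 4.69, 5.48 and 3.73 FPKM, nearly all of it ENO2, an enolase. None of these marker lists had a member that passed the test.

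Across the 12888 genes 7655 genes (59.4%) were on the same side of the control with both siRNAs, 4362 higher and 3293 lower. The median change of all genes was 0.03 with siRNA 1 and 0.04 with siRNA 2. At least 2-fold higher with both siRNAs were 102 genes (0.791% of those tested), while 44 genes (0.341%) were at least 2-fold lower with both. Of the 102 higher genes 44 were protein-coding genes of the nucleus, 25 were mitochondrial, 21 coded short RNAs, and 33 had under 50 fragments. Of the 44 lower genes only 6 were protein-coding, 23 coded short RNAs, and 34 had under 50 fragments. The control was under 1 FPKM for 44 of the 102 higher genes and for none of the lower ones, since a gene low in the control passed the minimum only where a knockdown library raised its mean. With the minimum set on the control alone the counts were 58 higher and 149 lower, so which direction held more genes depended on that choice. Rescaling each library without short RNA genes set the median change of all genes to -0.19 and the counts to 46 higher and 43 lower. Quantile normalization gave 97 higher and 68 lower.

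limma passed 3 genes at an adjusted p under 0.05 (0.0233% of those tested), namely OASL, IFIT1 and IFIT2, all higher. At an unadjusted p under 0.05 there were 776 genes, 525 higher and 251 lower. All other values below are levels and changes of genes that did not pass. In the plot of the change with siRNA 1 against the change with siRNA 2, OASL, the IFIT genes, CCL5 and CDKN1A stand at the upper right.

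**Figure D1:**
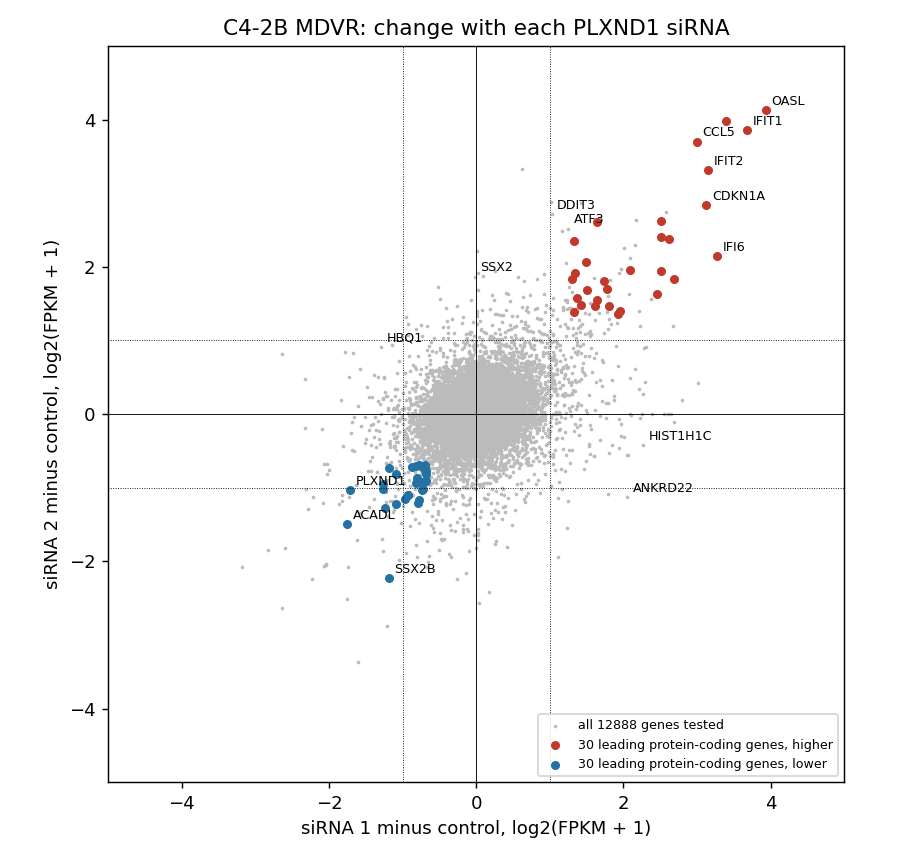
Change from the control with siRNA 1 (x axis) and siRNA 2 (y axis) in C4-2B MDVR, both on the log2(FPKM + 1) scale, 1 point per gene for 12888 genes; dotted lines mark a 2-fold change. OASL, at 3.93 and 4.13, is farthest along the diagonal among the 30 leading higher genes (red), and the 30 leading lower genes (blue) lie between -0.68 and -2.23 on each axis.

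The largest changes were in genes that cells switch on in response to interferon or to viral RNA. Of the 46 antiviral effectors on the list, 38 were higher and 2 lower with both siRNAs when every member was counted (82.6% and 4.35%, against 27.0% and 30.2% of all 29203 genes above 0 in C4-2B MDVR). Over the 32 members that passed the expression minimum, 13 were at least 2-fold higher with both siRNAs and 3 passed limma's test. Their median change was 0.97, beside 0.03 for all genes tested. Of these 32, 11 were under 1 FPKM in the control and passed the minimum through the knockdown libraries. The median over the whole list was 0.54.

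OASL, a relative of the oligoadenylate synthetases that binds RNA sensors (chromosome 12, 121019111 to 121039242), was at 0.329 FPKM in the control, 19.3 FPKM with siRNA 1 and 22.2 FPKM with siRNA 2. It rose 58.6-fold with siRNA 1 (95% counting interval 39.2 to 91.8) and 67.6-fold with siRNA 2 (45.2 to 105.8). On the log2(FPKM + 1) scale the change was 4.03 ± 0.20 (SE, limma adjusted p = 0.0463). The 2 siRNAs were close to each other and both far above the control.

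IFIT1, which binds viral RNA that lacks a host-type cap (chromosome 10, 89392546 to 89406486), rose from 0.596 FPKM to 19.5 and 22.1 FPKM. Its change was 3.77 ± 0.19 (limma adjusted p = 0.0463). IFIT2, a member of the same family on chromosome 10 (89283694 to 89309276), rose from 0.576 FPKM to 12.99 and 14.62 FPKM. Its change was 3.23 ± 0.18 (limma adjusted p = 0.0499). All 3 genes were under 1 FPKM in the control, and none passed in a fit of the 3 C4-2B MDVR libraries alone, where the lowest adjusted p of any gene was 0.119.

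The third member of the family showed the same order of levels. IFIT3 was at 0.146, 11.04 and 17.16 FPKM in the control, siRNA 1 and siRNA 2 libraries (limma adjusted p = 0.128). ISG15, a ubiquitin-like protein joined to other proteins in antiviral defence, was at 66.0, 379 and 257 FPKM in the control, siRNA 1 and siRNA 2 libraries. IFI6, a small membrane protein, was at 34.7, 344 and 157 FPKM. ISG15 and IFI6 were thus abundant already in the control and higher with siRNA 1 than with siRNA 2. BST2, or tetherin, which holds budding virus at the cell surface, was at 2.93, 21.3 and 23.2 FPKM. The membrane proteins IFITM1 and IFITM3, which block viral fusion, had changes of 2.50 and 1.21. HERC5, the ligase that attaches ISG15, had a change of 1.78, and OAS1, which makes the signal that activates RNase L, had a change of 1.74.

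Not every interferon-induced gene was high. MX1, a GTPase often taken as a marker of the interferon response, was at 0.347, 0.398 and 0.314 FPKM and so below the minimum in all 3 libraries. USP18, which removes ISG15, was at 10.3, 11.8 and 9.31 FPKM. RSAD2, OAS2 and IFI44 were at or near 0 in the control and between 1.01 and 1.45 FPKM with the siRNAs, also outside the minimum. TRIM25 was the 1 measured effector that was lower with both siRNAs, at 7.90, 6.44 and 6.603 FPKM.

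To show what these genes share in sequence, the 250 bases before the RefSeq transcription start (GRCh38.p14) are given for 4 of them, IFIT1, ISG15, BST2 and CXCL10, 5′ to 3′ on the gene's strand. The capitals mark matches to the interferon-stimulated response element, searched as GAAANNGAAA or, on the other strand, TTTCNNTTTC, with overlapping matches counted.
IFIT1 (chr10:89392373-89392622, plus strand): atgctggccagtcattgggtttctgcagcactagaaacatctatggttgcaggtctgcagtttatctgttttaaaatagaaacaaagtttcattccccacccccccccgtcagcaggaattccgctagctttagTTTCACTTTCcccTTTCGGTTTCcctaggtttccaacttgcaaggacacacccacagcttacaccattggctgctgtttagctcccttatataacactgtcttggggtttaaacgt
ISG15 (chr1:1013247-1013496, plus strand): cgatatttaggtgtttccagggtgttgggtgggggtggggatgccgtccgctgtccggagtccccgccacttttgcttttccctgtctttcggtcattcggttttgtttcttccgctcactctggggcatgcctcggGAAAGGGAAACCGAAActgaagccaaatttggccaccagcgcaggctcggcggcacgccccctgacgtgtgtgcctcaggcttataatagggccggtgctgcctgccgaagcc
BST2 (chr19:17405631-17405880, minus strand): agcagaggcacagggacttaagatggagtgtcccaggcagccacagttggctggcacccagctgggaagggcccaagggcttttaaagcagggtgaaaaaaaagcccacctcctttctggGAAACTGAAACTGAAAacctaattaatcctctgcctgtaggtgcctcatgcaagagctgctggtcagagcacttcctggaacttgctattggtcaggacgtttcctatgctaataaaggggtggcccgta
CXCL10 (chr4:76023498-76023747, minus strand): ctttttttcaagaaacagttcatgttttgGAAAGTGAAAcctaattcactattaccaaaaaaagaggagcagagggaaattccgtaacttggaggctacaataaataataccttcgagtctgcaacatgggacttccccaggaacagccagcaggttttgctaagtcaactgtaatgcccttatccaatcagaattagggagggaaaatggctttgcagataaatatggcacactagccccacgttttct
Matches were counted from 250 bases before to 50 bases after the start. IFIT1, ISG15 and BST2 each held 2 matches and CXCL10 held 1. Of the 32 measured effectors 25 had a promoter in the RefSeq table and 18 of these (72.0%) held a match. Among the 30 leading higher genes it was 10 of the 22 with a promoter (45.5%), and among the 30 leading lower genes 0 of 27. The motif stood in 3.56% of the 9274 tested genes with a promoter and in 4.38% of all 27305 genes of the table. OAS1 held no match in this window. A match is a description of the letters and not a sign that a factor bound there.

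Sensors of double-stranded RNA lie upstream of the effectors. DDX58, which codes RIG-I, was at 1.20, 5.72 and 5.06 FPKM, and IFIH1, which codes MDA5, was at 3.59, 6.48 and 6.21 FPKM. DHX58, a regulator of both, was at 1.21, 1.91 and 2.02 FPKM. The adaptor MAVS stayed between 15.4 and 16.7 FPKM and the kinase TBK1 between 12.7 and 13.9 FPKM. Of the 9 measured sensors and adaptors 4 were higher and 1 lower with both siRNAs (44.4% and 11.1%, beside 33.8% and 25.6% of all genes tested), and DDX58 alone was at least 2-fold higher with both. The median change of this list was 0.04, close to that of all genes, and it was negative under both rescalings and under quantile normalization (-0.20 at the lowest).

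Interferon transcripts themselves were at 0 in the control. IFNL1, a type III interferon, was at 5.39 FPKM with siRNA 1 and 1.29 FPKM with siRNA 2. IFNL2 was at 2.56 and 1.34 FPKM and IFNL3 at 3.93 and 0.878 FPKM, but these genes are near-identical copies, so the split of reads among them is uncertain. IFNB1, the type I interferon of most cell types, was at 1.73 and 0.645 FPKM, outside the minimum. The ligands were higher with siRNA 1 than with siRNA 2. The effectors were split: OASL, IFIT1, IFIT2 and IFIT3 were higher with siRNA 2, and ISG15, IFI6, IFI27 and IFITM1 with siRNA 1. Over the 32 measured effectors the median change was 1.06 with siRNA 1 and 0.72 with siRNA 2. The receptor subunit IFNAR1 was at 16.8, 15.9 and 14.2 FPKM. IRF7, which drives interferon genes, was at 20.0, 28.3 and 26.9 FPKM.

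Genes that show a cell to immune cells were higher to a smaller degree. Of the 11 measured genes of MHC class I presentation 8 were higher and 0 lower with both siRNAs (72.7% and 0.0%, against 33.8% and 25.6% of all genes tested). None of them was 2-fold higher with both, and the median change was 0.36. B2M, the light chain of the complex, was at 21.3, 33.6 and 30.1 FPKM, and HLA-B at 15.6, 32.7 and 21.8 FPKM. Reads of HLA genes can be split among their copies, so the HLA levels are uncertain. RAET1L, which natural killer cells recognise through NKG2D, had 0 fragments in the control and was at 4.69 and 4.30 FPKM with the siRNAs. Set against the 3 fragments that a count of 0 allows in that library, it was at least 43.6-fold higher with siRNA 1 and at least 40.0-fold higher with siRNA 2. These bounds leave out the counting error of the siRNA libraries, which held 127 and 94 fragments of it. No other NKG2D ligand was 2-fold higher with both siRNAs, and MICA was at 20.6, 33.4 and 24.0 FPKM.

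CCL5, a chemokine that draws T cells, was at 0.0957, 7.78 and 13.2 FPKM, and only 3 fragments stood behind its control value. CXCL10, another T cell chemokine, had 0 fragments in the control and was at 2.11 and 5.08 FPKM. These are bounds of at least 17.2-fold and at least 41.3-fold. They too leave out the counting error of the siRNA libraries, which held 50 and 97 fragments of CXCL10. Of the 10 measured genes of the chemokine and NF-kB list 7 were higher and 1 lower with both siRNAs (70.0% and 10.0%, against 33.8% and 25.6% of all genes tested), with a median change of 0.29. CCL5 and CXCL10 were the 2 that were at least 2-fold higher with both. CCL5, CXCL10 and BIRC3 were the 3 under 1 FPKM in the control, which passed the minimum through the knockdown libraries. NFKBIE, an inhibitor of NF-kB, was at 5.25, 7.73 and 7.71 FPKM, and BIRC3, an inhibitor of apoptosis, at 0.372, 0.641 and 2.51 FPKM. RELB, an NF-kB subunit, was at 2.03, 2.39 and 3.04 FPKM, while the inhibitor NFKBIA lay between 58.7 and 61.5 FPKM.

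**Figure D2:**
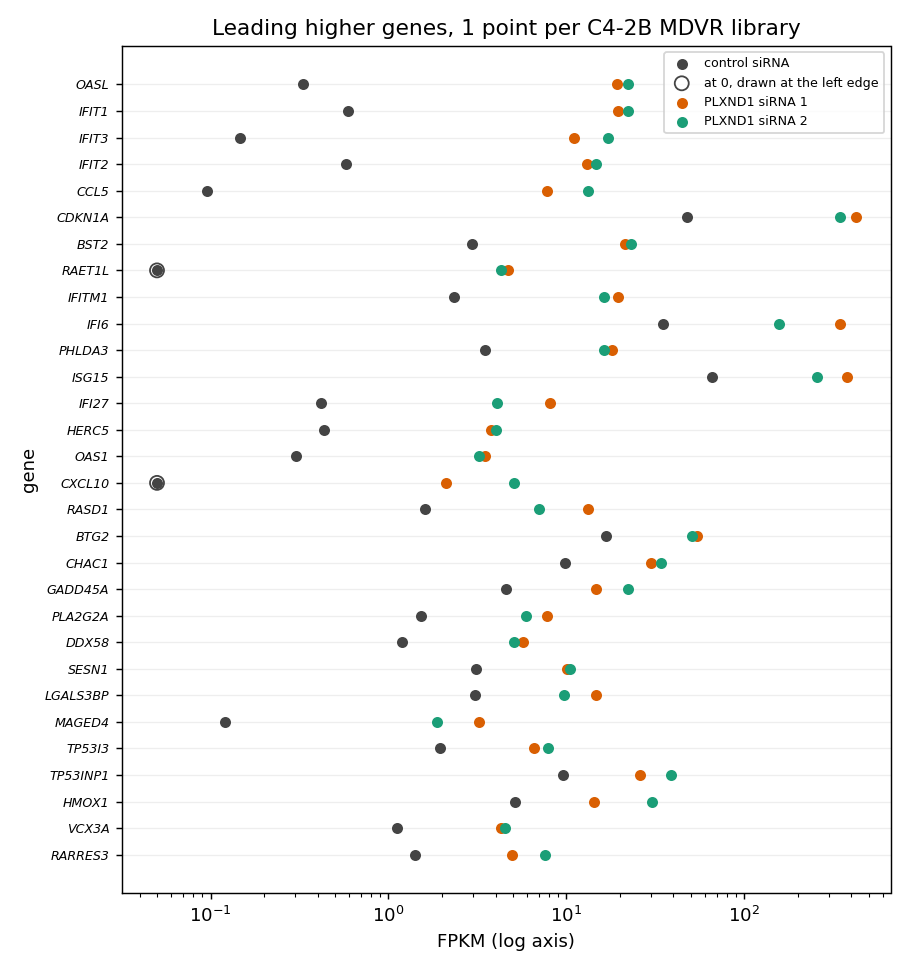
FPKM on a log axis of the 30 leading higher protein-coding genes in C4-2B MDVR, 1 point per library: control siRNA, PLXND1 siRNA 1 and PLXND1 siRNA 2. For every gene shown both knockdown points lie right of the control point; RAET1L and CXCL10 are at 0 in the control and are drawn at the left edge.

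Targets of the tumour suppressor p53 also stood among the higher genes. Of the 31 measured targets 27 were higher and 1 lower with both siRNAs (87.1% and 3.23%, against 33.8% and 25.6% of all genes tested). At least 2-fold higher with both were 8 of them, where all genes gave 0.791%, and none passed limma's test. The median change was 0.86, and it was 0.68 with siRNA 1 and 0.97 with siRNA 2. No measured target was under 1 FPKM in the control, so the minimum did not choose these members.

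CDKN1A, which codes the cell cycle inhibitor p21 (chromosome 6, 36676460 to 36687339), was at 47.5 FPKM in the control, 422 FPKM with siRNA 1 and 346 FPKM with siRNA 2. It was 8.89-fold higher with siRNA 1 (95% counting interval 8.56 to 9.24) and 7.28-fold higher with siRNA 2 (6.999 to 7.566). Its change of 2.98 ± 0.20 did not pass limma's test (adjusted p = 0.0856). With 3004 fragments in the control, CDKN1A was the most deeply measured of the 30 leading higher genes. BTG2, a brake on proliferation, was at 16.7, 54.0 and 50.9 FPKM, and SESN1, a sestrin that restrains mTOR, at 3.10, 10.1 and 10.5 FPKM. GADD45A, which acts in growth arrest and repair, was at 4.57, 14.6 and 22.4 FPKM. PHLDA3, an inhibitor of AKT, was at 3.47, 18.1 and 16.3 FPKM.

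Targets that promote cell death were higher as well. All 9 measured members of that kind were higher with both siRNAs, against 33.8% of all genes tested, with a median change of 1.07. PMAIP1, which codes NOXA, was at 2.14, 6.22 and 6.31 FPKM, and BBC3, which codes PUMA, was at 4.11, 7.01 and 16.9 FPKM. FAS, a death receptor, was at 1.13, 3.23 and 2.64 FPKM. TP53I3 and TP53INP1, both linked to oxidative stress, had changes of 1.47 and 1.63. MDM2, which degrades p53 and is its target, differed less, at 6.83, 7.41 and 10.9 FPKM.

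All 13 protein genes of the mitochondrial genome were higher with both siRNAs as deposited, against 33.8% of all genes tested. Of these, 11 were at least 2-fold higher, where all genes gave 0.791%, and the median change was 1.31. Under quantile normalization the median was 0.01 and 4 of them were lower. That method gives every library the same set of values, so it can hide a shared rise of the most abundant genes. MT-ND1, which belongs to complex I of the respiratory chain, was at 1372, 4760 and 4169 FPKM. MT-CO1, a subunit of complex IV, was at 5861, 12072 and 12484 FPKM. These genes hold part of the difference in mitochondrial share given above, and none passed the test. More mitochondrial transcripts per cell and less of other RNA cannot be told apart in such values. The nuclear pseudogenes MTATP6P1, MTND2P28 and MTCO1P12 were higher too, with changes of 1.27, 1.19 and 0.96, and they share sequence with the mitochondrial genes, so their counts are uncertain.

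Stress genes differed more with siRNA 2 than with siRNA 1. The integrated stress response, through which amino acid lack or misfolded proteins slow translation, had a median change of 0.09 with siRNA 1 and 0.68 with siRNA 2 over 29 measured genes. ATF4, its central transcription factor, was at 210, 194 and 350 FPKM. DDIT3, which codes CHOP, was at 9.23, 19.8 and 66.0 FPKM, and ATF3 at 6.38, 16.5 and 41.2 FPKM. CHAC1, which breaks down glutathione, was among the few with like values for both siRNAs, at 9.87, 29.9 and 34.0 FPKM. HSPA5, the main chaperone of the endoplasmic reticulum, was at 208, 219 and 559 FPKM. HMOX1, which breaks down heme, was at 5.13, 14.4 and 30.2 FPKM. The difference between the siRNAs has 1 library on each side and was not tested.

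The remaining leading higher genes were on none of the gene lists used here. RASD1, a Ras-like GTPase, was at 1.60, 13.3 and 7.04 FPKM. PLA2G2A, a secreted phospholipase, was at 1.52, 7.81 and 5.96 FPKM, and LGALS3BP, a secreted galectin ligand, at 3.07, 14.8 and 9.72 FPKM. The LGALS3BP promoter held 1 match to the interferon-stimulated response element. RARRES3 had a change of 1.57. MAGED4 and VCX3A, which both have near-identical copies, had changes of 1.64 and 1.35, which are uncertain for that reason.

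**Figure D3:**
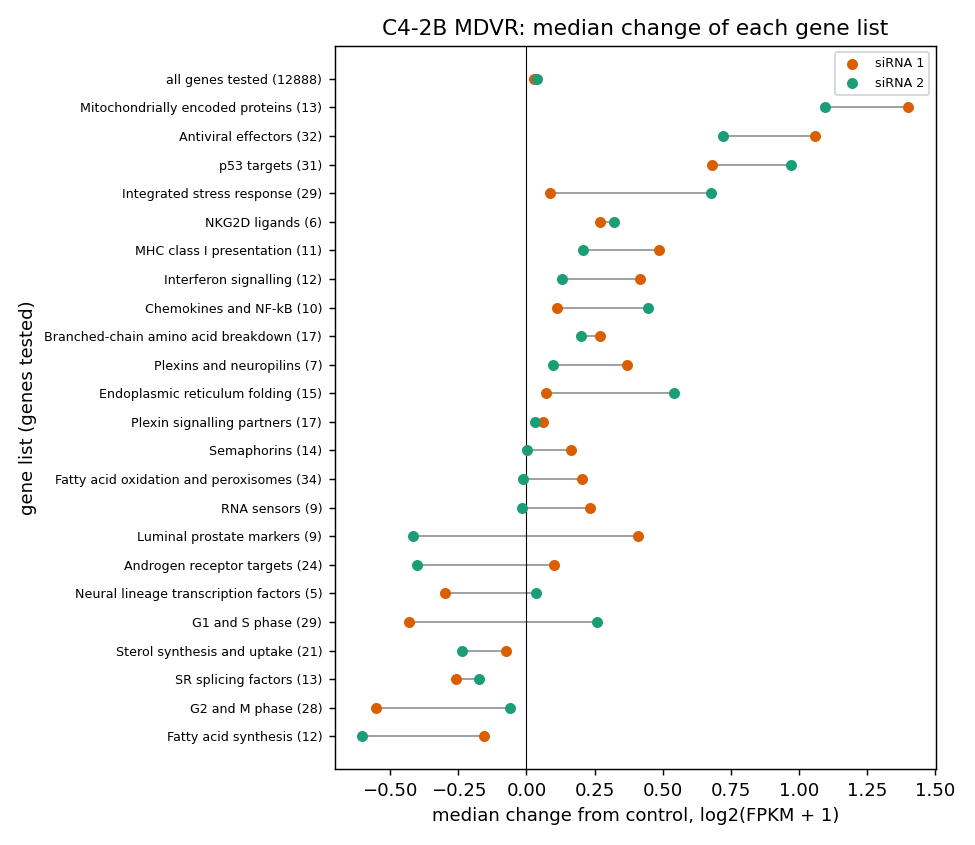
Median change from the control of each gene list with at least 5 genes tested, on the log2(FPKM + 1) scale, with siRNA 1 and siRNA 2 as separate points joined by a line; the number of genes tested stands in brackets. Mitochondrially encoded proteins, antiviral effectors and p53 targets have medians of 1.31, 0.97 and 0.86 over both siRNAs, and fatty acid synthesis is at -0.38. Over all members without the expression minimum, the antiviral median is 0.54 and the p53 one 0.75. The mitochondrial median is 0.01 under quantile normalization, which can hide a shared rise of the most abundant genes.

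Differences were smaller among the leading lower genes, and none passed limma's test. The 30 leading lower genes, PLXND1 among them, were headed by ACADL, an acyl-CoA dehydrogenase of fatty acid oxidation, at 7.51, 1.53 and 2.01 FPKM. The smaller of the 2 siRNA changes, which set the order, was -1.50 for ACADL and -1.04 for PLXND1. The mean change of ACADL was -1.62 ± 0.21 (limma adjusted p = 0.271). The remaining level was 20.4% of the control with siRNA 1 and 26.8% with siRNA 2. PEX10, a ubiquitin ligase of peroxisome import, was at 23.9, 9.53 and 9.31 FPKM. MCCC2, a subunit of the carboxylase that breaks down leucine, was at 15.9, 6.03 and 7.33 FPKM.

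Their pathways held genes on both sides of the control. Of 34 measured genes of fatty acid oxidation and peroxisomes, 14 were higher and 8 lower with both siRNAs (41.2% and 23.5%, near the 33.8% and 25.6% of all genes tested), with a median change of 0.09 as deposited and -0.15 after rescaling without short RNA genes. HADHB, of the trifunctional enzyme, was at 27.7, 41.7 and 38.1 FPKM, and PEX7 at 8.52, 12.3 and 12.4 FPKM. Of 17 measured genes of branched-chain amino acid breakdown 10 were higher and 1 lower (58.8% and 5.88%), MCCC2 being the lower one, with a median of 0.23 as deposited and -0.02 after that rescaling.

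Genes of fatty acid synthesis lay lower as a list. Of 12 measured genes 8 were lower and 0 higher with both siRNAs, against 25.6% and 33.8% of all genes tested, and the median change was -0.38. It was -0.16 with siRNA 1 and -0.60 with siRNA 2. SCD, which puts the double bond into stearate, was at 290, 153 and 135 FPKM, and the desaturase FADS1 at 21.1, 9.37 and 8.43 FPKM. FASN, the fatty acid synthase, was at 671, 483 and 336 FPKM. SREBF1, which codes the factor that drives this pathway, was at 185, 154 and 117 FPKM. INSIG1, which holds that factor in the endoplasmic reticulum and is also its target, was at 150, 61.6 and 77.5 FPKM.

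Sterol genes were lower by less. Of 21 measured genes of sterol synthesis and uptake 11 were lower and 1 higher with both siRNAs (52.4% and 4.76%, against 25.6% and 33.8% of all genes tested), with a median of -0.11. HSD17B7, an enzyme of cholesterol synthesis, was at 8.26, 5.66 and 4.29 FPKM, and FDPS, which makes farnesyl diphosphate, was at 22.4, 11.4 and 17.0 FPKM. A sterol response element, searched as TCACNCCAC on both strands, was in the promoter of 1 of 16 sterol genes and 0 of 11 fatty acid genes with a promoter, beside 1.46% of the genes tested.

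SR splicing factors, which help choose exons, were lower with both siRNAs in 11 of 13 measured genes and higher in 1 (84.6% and 7.69%, against 25.6% and 33.8% of all genes tested). Their median change was -0.25. SRSF1 was at 18.5, 9.02 and 7.78 FPKM, and SRSF2 at 29.5, 20.4 and 17.6 FPKM. HNRNPM, another splicing regulator, was at 50.02, 26.81 and 30.07 FPKM. The other SR members had mean changes between -0.34, for SRSF5, and 0.10, for SRSF9.

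Cell cycle genes were lower mainly with siRNA 1. Of 28 measured genes of G2 and M phase 16 were lower and 1 higher with both siRNAs (57.1% and 3.57%, against 25.6% and 33.8% of all genes tested), with a median of -0.55 with siRNA 1 and -0.06 with siRNA 2. CDC20, which activates the anaphase-promoting complex, was at 86.7, 51.6 and 59.6 FPKM, and CCNB1, cyclin B1, at 69.27, 36.51 and 49.97 FPKM. MKI67, a proliferation marker, was at 14.0, 7.18 and 11.7 FPKM. Genes of G1 and S phase had a median of -0.43 with siRNA 1 and 0.26 with siRNA 2, so the siRNAs differed in direction there. CDKN1A was high with both.

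**Figure D4:**
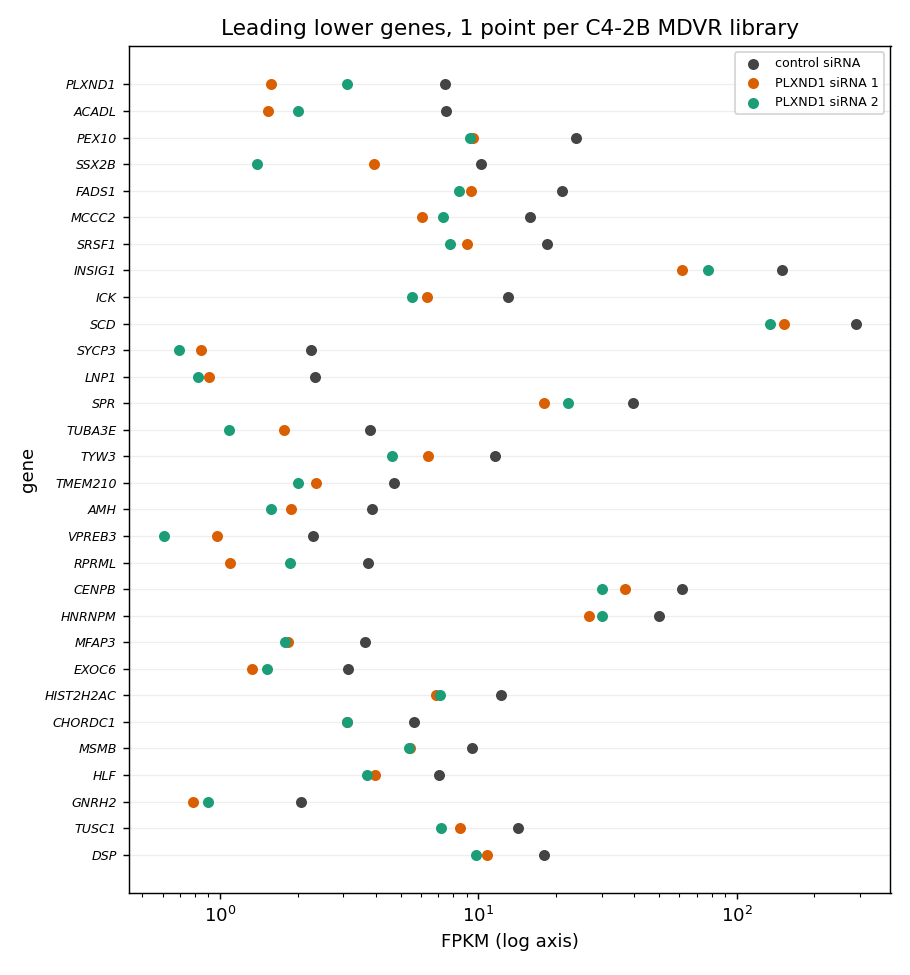
FPKM on a log axis of the 30 leading lower protein-coding genes in C4-2B MDVR, 1 point per library: control siRNA, PLXND1 siRNA 1 and PLXND1 siRNA 2. For every gene shown both knockdown points lie left of the control point, and SCD has the highest levels (290 FPKM in the control).

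Among the other leading lower genes, ICK, a ciliary kinase, was at 12.98, 6.331 and 5.528 FPKM. SPR, which makes the cofactor tetrahydrobiopterin, was at 39.66, 18.02 and 22.21 FPKM. CENPB, a centromere protein, was at 61.7 FPKM in the control and 36.9 FPKM with siRNA 1, and its change over both siRNAs was -0.87. DSP, which codes the desmosome protein desmoplakin, was at 17.9, 10.8 and 9.80 FPKM. SSX2B, a cancer-testis gene, was at 10.2, 3.94 and 1.39 FPKM while its near-identical copy SSX2 was at 1.23, 1.20 and 7.10 FPKM, so reads may be split between the copies and both are uncertain. Outside the protein-coding genes, LINC01419 was at 5.30, 1.80 and 1.78 FPKM, and FBXL19-AS1 at 4.16, 1.38 and 1.09 FPKM. FBXL19-AS1 is an antisense gene, and whether the counting used strand is not given in the sources used here.

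The plexin system showed no common direction apart from PLXND1. Of 7 measured plexins and neuropilins 3 were higher and 1 lower with both siRNAs, PLXND1 being the lower one. These are 42.9% and 14.3%, near the 33.8% and 25.6% of all genes tested. NRP1, a co-receptor, was at 1.19, 3.41 and 1.85 FPKM, and PLXNB2 at 95.1, 134 and 114 FPKM. SEMA3E, the ligand best known for plexin D1, was at 0 in all 3 libraries. SEMA3C, another ligand of plexin D1, was at 1.30, 5.12 and 1.07 FPKM, high in the siRNA 1 library alone, and SEMA3F was at 28.2, 61.3 and 41.4 FPKM. Of 17 measured signalling partners, 1 was at least 2-fold higher with both siRNAs, where all genes gave 0.791%. This was RND3, a small GTPase that acts with plexins, at 3.83, 10.2 and 19.1 FPKM. RRAS was at 59.9, 110.0 and 78.2 FPKM, and RAC1 at 78.2, 73.1 and 96.6 FPKM.

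Androgen receptor targets differed between the siRNAs. Of 24 measured targets 10 were lower and 1 higher with both siRNAs (41.7% and 4.17%, against 25.6% and 33.8% of all genes tested), with medians of 0.10 under siRNA 1 and -0.40 under siRNA 2. KLK3, which codes prostate-specific antigen, was at 197, 228 and 77.5 FPKM. TMPRSS2 was at 135, 263 and 101 FPKM. KLK2 was at 102, 85.0 and 36.2 FPKM, and SLC45A3, the prostein gene, at 151, 94.1 and 44.9 FPKM. KLK2 and SLC45A3 were lower with both siRNAs, but KLK3 and TMPRSS2 were each higher with siRNA 1 and lower with siRNA 2. The genes with the widest split were ANKRD22, at 2.81, 14.8 and 0.746 FPKM, and HIST1H1C, at 52.7, 257 and 39.0 FPKM, both high with siRNA 1 alone. HBQ1, at 17.3, 6.49 and 33.3 FPKM, went the other way. In all, 7 genes were at least 2-fold away from the control in opposite directions with the 2 siRNAs.

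The leading genes of C4-2B MDVR had smaller differences from the control in H660, where their mean changes ran from -0.47 to 0.82. OASL was at 0.0459, 0.0242 and 0.0441 FPKM in the H660 control, siRNA 1 and siRNA 2 libraries, and IFIT1 at 0.385, 0.369 and 0.471 FPKM. CDKN1A was at 92.6, 96.3 and 94.5 FPKM there, above the C4-2B MDVR control. CHAC1 was at 2.63, 4.88 and 5.96 FPKM in H660 and HMOX1 at 7.64, 10.7 and 13.4 FPKM, both higher with each siRNA as in C4-2B MDVR. BST2 was at 2.13, 1.10 and 1.46 FPKM, the other way from C4-2B MDVR. The integrated stress response had a median change of 0.44 in H660, beside 0.45 in C4-2B MDVR. Of the 30 leading higher genes 11 were higher and 10 lower with both siRNAs in H660, with a median change of 0.02, beside 1.93 in C4-2B MDVR. The 30 leading lower genes, PLXND1 among them, had a median of -0.05 in H660, beside -0.88 in C4-2B MDVR. Of these, 15 were lower with both siRNAs in H660. The share of all genes on each side of the H660 control is not given here, so these counts have no background beside them. Since these genes were chosen for their change in C4-2B MDVR, the larger change there is no finding.

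The difference of the effect between the lines was tested gene by gene. limma passed 0 of 12888 genes (0.0%), with 518 at an unadjusted p under 0.05 and a lowest adjusted p of 0.123, and voom on recovered fragments also passed 0. For OASL the difference was 4.05 ± 0.28 (SE, limma adjusted p = 0.173) and for CDKN1A it was 2.94 ± 0.28 (adjusted p = 0.306). Over the same 12888 genes H660 had 31 past the 2-fold mark upward and 34 downward with both siRNAs. Of these, 1 higher gene and 3 lower genes were also among the 102 and 44 of C4-2B MDVR. PLXND1 itself differed little from its control in H660, as given above, and the part of that in the difference between the lines was not tested.

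**Figure D5:**
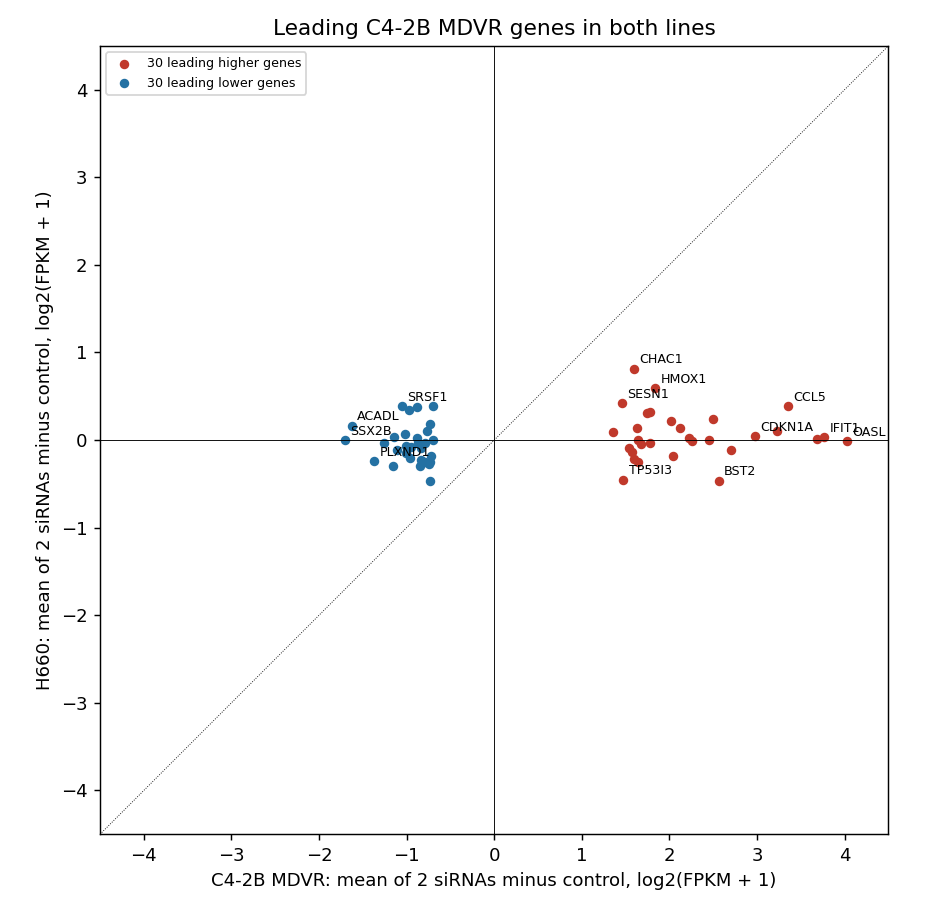
Mean change of the 2 siRNAs from the control on the log2(FPKM + 1) scale in C4-2B MDVR (x axis) and H660 (y axis), 1 point per gene for the 30 leading higher and 30 leading lower genes of C4-2B MDVR; the dotted diagonal marks equal change. The points lie between -0.47 and 0.82 in H660, with CHAC1 the highest, and between -1.71 and 4.03 in C4-2B MDVR.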

How the data were processed

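The authors deposited 1 table of FPKM values per gene for the 6 libraries. Reads were paired ends, per the labels' protocols, and were aligned with HISAT and summarised with Cufflinks against hg18, per the submitters' processing notes. All 58735 deposited gene IDs are in GENCODE 29 (GRCh38), which gave symbols and the coordinates printed. FPKM times exon length came out as whole fragments (tolerance 0.05) in 100.0% of values, and these fragments give depth and counting intervals (exact, 95%). The deposited FPKM entered limma 3.58.1 (R 4.3.3) on the log2(FPKM + 1) scale: 4 groups, 6 libraries, 2 residual degrees of freedom, an intensity trend, two-sided, Benjamini-Hochberg adjustment, threshold 0.05. The script was tested on simulated data. Named genes are PLXND1, the 30 protein-coding genes each way with the largest smaller change of the 2 siRNAs, 5 each way of other types, list members by the same measure, and 5 each way with opposite changes. RSAD2, OAS2, IFI44, MX1, USP18, TRIM25, IFNB1 and other list members outside that rule were chosen after their values were seen. The members and the 28 gene lists were chosen with earlier results of these data known. Alternatives covered the pseudocount, filters, scalings, voom, the libraries fitted and a siRNA block. Promoters are from RefSeq (GRCh38.p14). Some genes are not reported here.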

Additional observations from a re-analysis of the deposited data

How the results depend on the processing

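The 3 limma calls depended on the settings. There were 0 with a pseudocount of 0.1, with the control at or above 1 FPKM, with voom on recovered fragments and with the 3 C4-2B MDVR libraries alone. There were also 0 with 15638 genes at 1 FPKM in at least 1 line, an alternative chosen after seeing the data. In these settings 363 to 931 genes had an unadjusted p under 0.05. The minimum on the control left out OASL, IFIT1 and IFIT2 before the test, so that setting cannot show whether their calls hold. No filter on low values gave 569 calls, and a minimum mean of 5 FPKM gave 6. Leaving out 1 knockdown library gave 0 to 55 calls: 43 and 55 without C4-2B MDVR siRNA 1 or 2, where the spread comes from H660 alone and the lone library is assumed to vary like it, and 0 without either H660 one (353 and 357 at an unadjusted p under 0.05). OASL had adjusted p-values of 0.00593 to 0.119 over its alternatives.

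Counts at least 2-fold higher with both siRNAs were 188 (pseudocount 0.1), 58 (control at or above 1), 55 (mean of 5), 46 (rescaled without short RNA genes), 48 (without mitochondrial and short RNA genes) and 190 (voom). Those lower were 85 (pseudocount 0.1), 149 (no filter), 149 (control at or above 1), 7 (mean of 5), 24 (without mitochondrial and short RNA genes), 68 (quantile), 101 (voom) and 10 (at least 50 fragments, chosen after seeing the data). Without a C4-2B MDVR siRNA they have no value. Calls for the difference between lines were 1 (pseudocount 0.1), 304 (no filter) and 1 (mean of 5). The same-sign share was 57.3% (no filter), 58.5% (mean of 5), 68.5% (without short RNA genes) and 57.8% (15638 genes).

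The siRNA numbers did not pair the libraries across lines (correlation of deviations -0.008, 2 pairs). The siRNA number as replicate block gave 9 calls, and 3 for the difference between lines.

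Signs reversed under quantile normalization for MT-ND4L (-0.15), MT-ND4 (-0.16), MT-CO2 (-0.17) and MT-CO3 (-0.077), and after rescaling without short RNA genes for EDEM1 (-0.01), PCCB (-0.019), SEMA4B (-0.025) and NKX2-2 (-0.058). The cause was not tested, and quantile normalization can hide a shared rise of the most abundant genes. The lone control and 2 residual degrees of freedom limit every p-value.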

Other observations

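A few further genes had large values in 1 or both knockdown libraries. CBWD4P, a pseudogene, was at 0.589, 3.41 and 3.10 FPKM in the control, siRNA 1 and siRNA 2 libraries, from 8 fragments in the control. GLYATL1P2, another pseudogene, was at 1.99, 5.60 and 4.72 FPKM. Other genes differed in 1 knockdown library. NPTX2, a secreted pentraxin, was at 11.5, 3.11 and 12.5 FPKM, low with siRNA 1 alone, and PABPC4, a poly(A)-binding protein, was at 56.6, 26.5 and 83.6 FPKM. HES6, a neural lineage transcription factor, was at 39.4, 15.4 and 39.3 FPKM. KRT14, a basal keratin, was at 0.0634, 1.22 and 0.0540 FPKM and so was seen mainly in the siRNA 1 library.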
